A study of Rattus norvegicus with 24 samples.

Results

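The 8 genes described here encode hemoglobin chains and proteins made by red blood cell precursors: Hba-a1, Hba-a2, Hbb, Hbb-bs, Alas2, Slc4a1, Ahsp and Epb42. They were taken by symbol from a table of 32883 genes, and each symbol had 1 row. The table covers urethra of adult female virgin Sprague-Dawley rats after simulated vaginal delivery (SVD), which combines crush of the pudendal nerve with balloon distension of the vagina to imitate birth injury. The 24 samples fell into 6 groups of 4, which were saline, MABsallo and MABsallo-VEGF, each at 3d and at 7d. All groups had the injury, and the injection was given into the aorta after heparin and a vasodilator. MABsallo are allogeneic mesoangioblasts, a vessel-associated progenitor cell. MABsallo-VEGF are the same cells carrying VEGF from a lentivirus together with a truncated CD34, labelled VEGF OE. No injured group without an injection was analysed here, so the saline groups are the controls.

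Hemoglobin is a tetramer of alpha and beta globin chains, each holding a heme group whose iron binds oxygen. Erythroblasts in the bone marrow make globin, heme and membrane proteins in large amounts, and the youngest circulating red cells, reticulocytes, still carry these mRNAs after the nucleus is lost. In a solid organ the same transcripts usually come with the blood that the vessels hold. Hba-a1 and Hba-a2 encode alpha globin, and Hbb and Hbb-bs encode beta globin. Alas2 is the erythroid form of the rate-limiting enzyme of heme synthesis. Ahsp is a chaperone that binds free alpha globin. Slc4a1 (band 3) is the chloride-bicarbonate exchanger of the red cell membrane, and Epb42 (protein 4.2) ties band 3 to the membrane skeleton.

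RefSeq promoters were matched by symbol for 6 of the 8 genes, and those of Slc4a1 and Ahsp were not used here. The 250 bases before the start of 4 of them are shown as a description. Their part in the shared variation of the 8 genes across samples was not tested. The build is GRCr8, which is not the Rnor6.0 build of the deposited table. Hba-a1 lies at chr10:15842581-15842830 (minus strand), Hbb at chr1:167663722-167663971 (minus), Hbb-bs at chr1:167631631-167631880 (minus) and Alas2 at chrX:22895200-22895449 (plus). Capitals mark matches on either strand to a GATA word (NGATAN, its first base A or T and its last A or G) or to the CACCC-type word CCNCNCCC.
Hba-a1: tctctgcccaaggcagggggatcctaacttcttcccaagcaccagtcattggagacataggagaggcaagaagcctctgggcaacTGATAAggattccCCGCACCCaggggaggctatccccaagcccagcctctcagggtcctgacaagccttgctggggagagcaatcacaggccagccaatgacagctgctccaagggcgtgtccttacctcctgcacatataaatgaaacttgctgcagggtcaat
Hbb: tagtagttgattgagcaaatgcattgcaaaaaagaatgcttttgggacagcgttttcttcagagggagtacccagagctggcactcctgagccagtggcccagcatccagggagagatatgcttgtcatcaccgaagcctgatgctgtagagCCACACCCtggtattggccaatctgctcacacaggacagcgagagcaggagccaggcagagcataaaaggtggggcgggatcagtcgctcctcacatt
Hbb-bs: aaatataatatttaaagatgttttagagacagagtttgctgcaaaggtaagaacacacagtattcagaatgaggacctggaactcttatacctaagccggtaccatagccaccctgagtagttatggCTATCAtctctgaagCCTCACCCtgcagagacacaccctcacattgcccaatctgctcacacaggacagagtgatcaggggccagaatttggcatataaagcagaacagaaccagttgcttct
Alas2: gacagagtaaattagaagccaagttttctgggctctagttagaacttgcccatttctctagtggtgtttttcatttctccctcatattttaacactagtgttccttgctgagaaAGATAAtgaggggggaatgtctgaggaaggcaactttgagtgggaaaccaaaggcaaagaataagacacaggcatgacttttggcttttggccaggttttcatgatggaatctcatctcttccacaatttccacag
The Hba-a1 window held a GATA word at -165 to -160 and a CACCC-type word at -152 to -145, counted back from the start. Hba-a2 was identical to it at 241 of 250 bases (96.4%) and held both words at the same positions. The Hbb and Hbb-bs windows matched at 162 of 226 aligned bases (71.7%). GATA words were in 5 of the 6 windows (not Hbb) and CACCC-type words in the 4 globin windows. Over 33469 RefSeq promoters, 27.0% held a GATA word, 42.8% a CACCC-type word and 7.57% both. The 4 globin windows also held the box CCAAT, on either strand, and each held the box ATAAA once. Hba-a1, Hba-a2 and Hbb-bs thus held all 4 words, as did 1.22% of all promoters. A match is a description of letters and shows no binding. RefSeq gives the alpha globin symbols as synonyms of each other's genes, so the match of each alpha globin to its window is uncertain.

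The libraries were 3' mRNA libraries with 2170695 to 10166052 reads per sample, recovered from the deposited normalized gene counts. The recovered read is the smallest step of a sample. Deposited values were 4 times the recovered reads over their DESeq2 size factor in every sample, and the origin of this factor is not given in the sources used here, so a step may stand for 4 counted reads. Shares of reads do not depend on this factor. The filter on low genes does, and so do fold changes of low genes, through the 1 added before the log2. Intervals, limits and the DESeq2 and edgeR tests were computed as if a step were 1 read. The 8 cell-treated libraries at 3d were the shallowest, with 2170695 to 4491900 reads, and the others had at least 4851797. A read was worth 1.67 to 9.23 normalized counts. Since a 3' library gives reads from the transcript end only, counts were compared between genes without division by length. Reads that mapped to several places had been discarded, so the split of reads between near-identical globin copies is uncertain. Markers of urethral tissue were present in every sample, with summed normalized counts of at least 22471 for 5 smooth muscle genes, 41936 for 5 striated muscle genes and 772 for 6 urothelial genes. The lowest smooth muscle and urothelial sums were both in saline 3d replicate 8. The other saline 3d samples had 88342 to 165791 and 11504 to 16536, so tissue content differed within this group. Libraries of a group did not always resemble each other most. By the mean correlation over all genes, 8 of 12 libraries at 3d and 5 of 12 at 7d were closer to another group than to their own. At 3d, saline replicate 6 was the saline library closest to a cell-treated 3d group and MABsallo-VEGF replicate 4 the cell-treated library closest to saline. Saline 3d replicate 6 had a mean correlation of 0.889 with the other saline samples at 3d and 0.906 with MABsallo-VEGF 3d. MABsallo-VEGF 3d replicate 4 had 0.872 with its own group and 0.919 with saline 3d. Saline 3d replicate 8 had 0.876 with its own group and 0.909 with saline 7d, and was kept. Replicate 6 was the lowest saline 3d sample, and replicate 4 the highest MABsallo-VEGF 3d sample, for all 8 genes. Earlier work on these data left out replicates 6 and 4, so results are given with 24 samples and, without these, with 22, and the calls with 22 rest on that choice.

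Hba-a1 was among the most abundant transcripts in the urethra, at rank 5 of 32883 by mean normalized gene count (282631 over 24 samples). Hba-a2 ranked 13 (mean 128889), Hbb-bs 46 (29979) and Hbb 129 (14436). The 4 other genes were lower, with Alas2 at rank 2037 (1564), Slc4a1 at 2618 (1226), Ahsp at 5880 (440) and Epb42 at 11421 (43.2). All 8 were among the 16287 genes tested. All but Epb42 had reads in every sample.

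Samples of the same group differed widely. For Hba-a1 the saline samples at 3d had 24454, 247709, 392487 and 252362 normalized counts (replicates 6, 8, 9 and 10). The MABsallo samples at 3d had 43566, 185351, 146682 and 66166 (replicates 1 to 4). MABsallo-VEGF at 3d had 14826, 123599, 28580 and 275741 (replicates 1 to 4). The group medians stood in the order saline, MABsallo, MABsallo-VEGF (250035, 106424 and 76090), but the lowest saline sample was below every MABsallo sample and the highest MABsallo-VEGF sample was above all MABsallo samples. Saline at 7d had 239332, 662753, 145604 and 307449 (replicates 1, 2, 3 and 5). MABsallo at 7d had 187138, 119443, 150765 and 1275722 (replicates 7.2, 9, 11 and 13). MABsallo-VEGF at 7d had 691495, 50482, 389556 and 761889 (replicates 6, 7, 11 and 12). At 7d the highest sample was a MABsallo sample and the lowest a MABsallo-VEGF sample, and the 3 groups overlapped. The medians at 7d were 273390 for saline, 168951 for MABsallo and 540525 for MABsallo-VEGF.

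Hba-a2 followed Hba-a1 closely, with small changes in the order of samples (rho = 0.975, permutation p = 1e-05). It ranged from 13918 to 152429 in saline, 21712 to 107826 in MABsallo and 7246 to 129108 in MABsallo-VEGF at 3d. At 7d the ranges were 52058 to 293357, 54589 to 529783 and 26576 to 347576.

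Hbb had the widest range of the 8 genes. In saline at 3d its normalized counts were 269, 6989, 24873 and 16075. In MABsallo at 3d they were 1321, 3036, 2160 and 835. In MABsallo-VEGF at 3d they were 238, 992, 600.4 and 35554. Apart from saline replicate 6 and MABsallo-VEGF replicate 4, the saline samples at 3d were all above the cell-treated samples. At 7d the saline samples had 10665, 28830, 5365 and 14443 normalized counts of Hbb. The MABsallo samples had 13663, 1563, 6089 and 96825. The MABsallo-VEGF samples had 38249, 1018, 16221 and 20588. Each cell-treated group at 7d held samples both below and above all 4 saline samples. The highest sample was 407-fold above the lowest. The other beta globin, Hbb-bs, ranged from 2042 to 36104 in saline, 4225 to 24012 in MABsallo and 903 to 34775 in MABsallo-VEGF at 3d, and from 14230 to 55766, 8911 to 132013 and 3537 to 85179 at 7d.

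Alas2 had 58.5, 1482, 1594 and 1168 normalized counts in saline at 3d. In MABsallo at 3d it had 178, 553, 582 and 152. In MABsallo-VEGF at 3d it had 37.8, 325, 136 and 1603. As for Hbb, 3 saline samples were high, 7 cell-treated samples were low, and the remaining sample of each kind lay with the other. At 7d Alas2 had 1590, 4712, 971 and 2547 in saline. It had 1072, 377, 857 and 8420 in MABsallo. It had 3254, 114, 2278 and 3464 in MABsallo-VEGF. The groups overlapped at 7d, with MABsallo replicate 13 the highest and MABsallo-VEGF replicate 7 the lowest.

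Slc4a1, the membrane exchanger, had 107, 678, 1183 and 781 normalized counts in saline at 3d. It had 256, 722, 2428 and 526 in MABsallo at 3d. It had 59.5, 292, 343 and 2881 in MABsallo-VEGF at 3d. The highest MABsallo sample was above all saline samples, unlike for the globins. At 7d the values were 1221, 2469, 422 and 1170 in saline. They were 297, 348, 776 and 5594 in MABsallo. They were 2808, 114, 2151 and 1791 in MABsallo-VEGF. The groups again overlapped.

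Ahsp, the alpha globin chaperone, had 68.9, 325, 300.2 and 398 normalized counts in saline, 107, 142, 1246 and 75.9 in MABsallo and 21.6, 100.01, 85.8 and 1095 in MABsallo-VEGF at 3d. At 7d it ranged from 104 to 1165, 49.6 to 855 and 45.6 to 1277 in the 3 groups. MABsallo replicate 3 at 3d, which was not extreme for the globins, had the second highest Ahsp of all 24 samples. Epb42 was near the limit of depth at 3d, with 0, 23.5, 53.6 and 63.3 in saline, 0, 27.4, 83.1 and 5.42 in MABsallo and 10.8, 8.33, 5.04 and 125 in MABsallo-VEGF. The samples at 0 had no read, which allows up to 10.3 normalized counts in saline replicate 6 and 21.3 in MABsallo replicate 1 (3 reads). At 7d Epb42 was detected in all 12 samples, from 9.29 to 195.

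**Figure D1:**
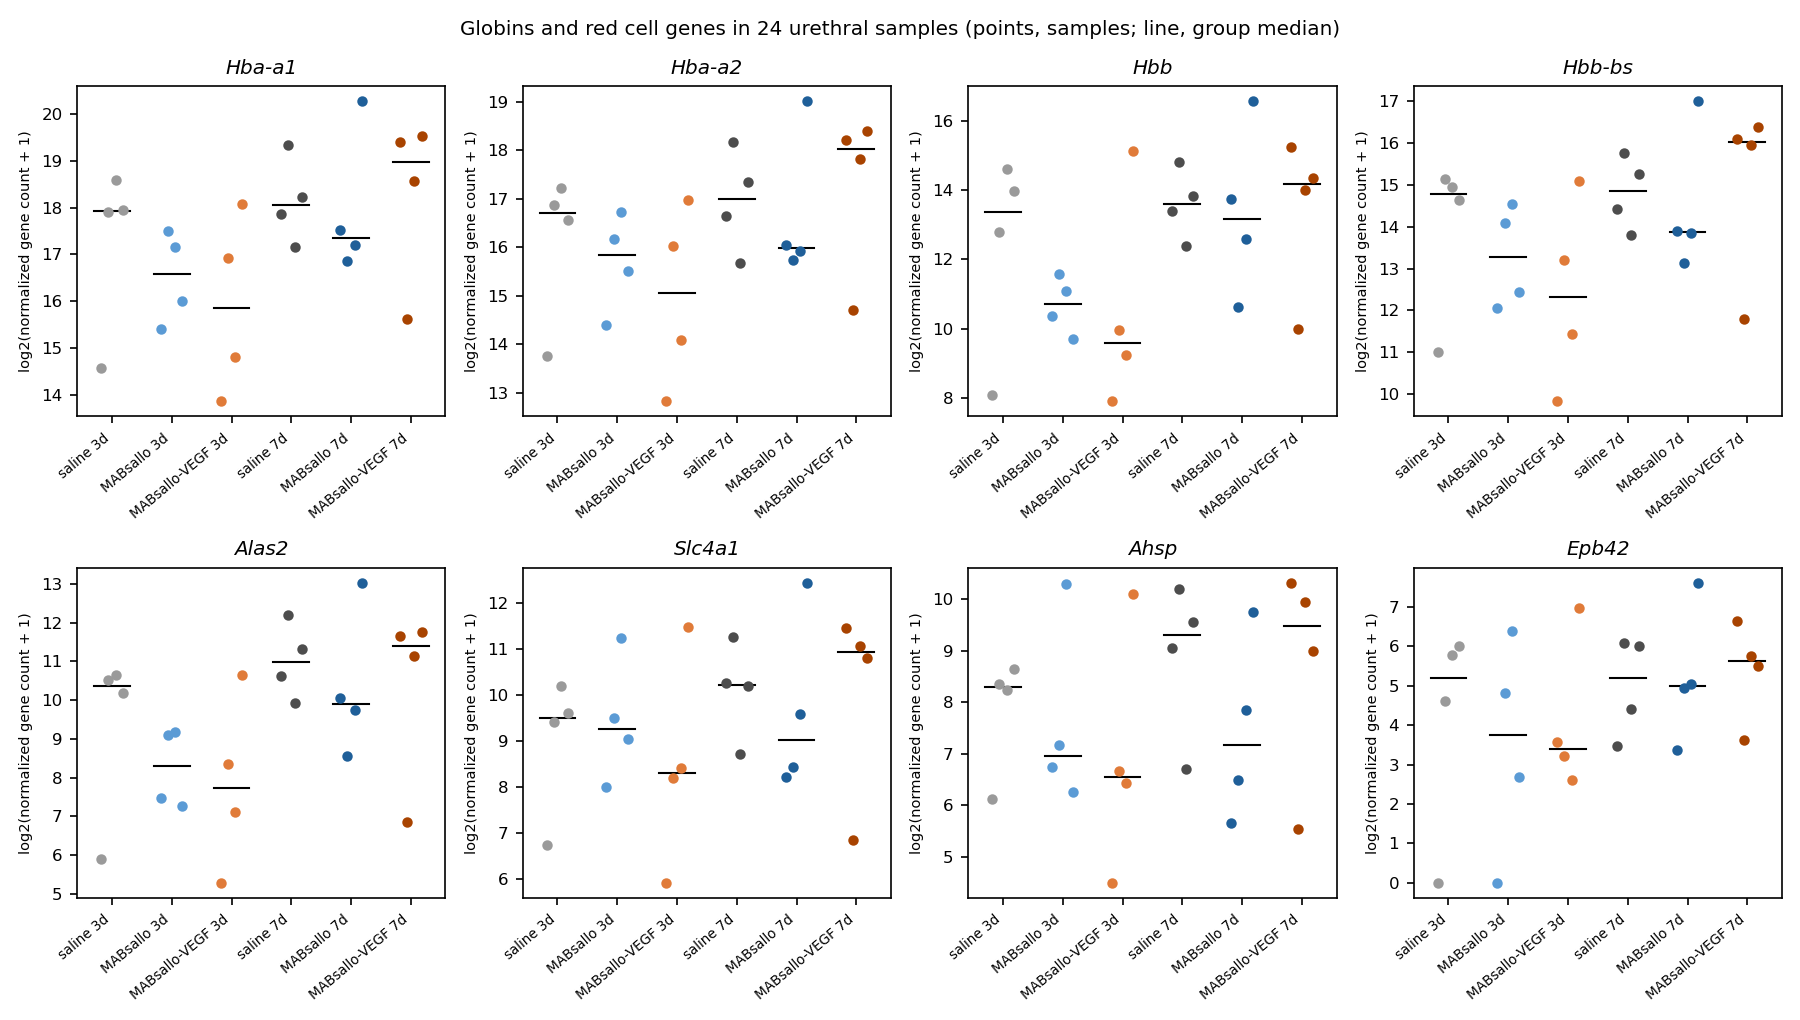
Levels of the 8 genes, as log2(normalized gene count + 1) (y axis), in each of the 6 groups (x axis); points are samples and lines are group medians. For 7 of the 8 genes the lowest sample was MABsallo-VEGF 3d replicate 1, and for 7 the highest was MABsallo 7d replicate 13.

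The spread within groups was larger than for most genes. The standard deviation within groups was 1.56 (log2 scale) for Hba-a1 and 1.51 for Hba-a2, above that of 82.9% and 80.1% of genes tested. For Hbb it was 2.31, above 99.3% of genes. The other genes had standard deviations of 1.78 (Hbb-bs, Slc4a1), 1.84 (Ahsp), 1.89 (Alas2) and 2.07 (Epb42).

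Reads on 6 globin genes (Hba-a1, Hba-a2, Hba-a3, Hbb, Hbb-bs and LOC100134871, a beta globin named Hbbl1 in RefSeq) made up 0.122% of reads in MABsallo-VEGF 3d replicate 1 (95% exact binomial interval 0.118 to 0.125) and 9.82% in MABsallo 7d replicate 13 (9.80 to 9.85). These intervals cover counting error only. The share was 2.31% ± 1.51 (SD, n = 4) in saline, 0.985% ± 0.646 in MABsallo and 1.03% ± 1.30 in MABsallo-VEGF at 3d. At 7d it was 3.63% ± 2.38, 3.59% ± 4.17 and 4.61% ± 3.08. The SD was close to or above the mean in MABsallo 7d and MABsallo-VEGF 3d. In bulk tissue, fewer red cells and less globin mRNA per cell cannot be told apart.

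**Figure D2:**
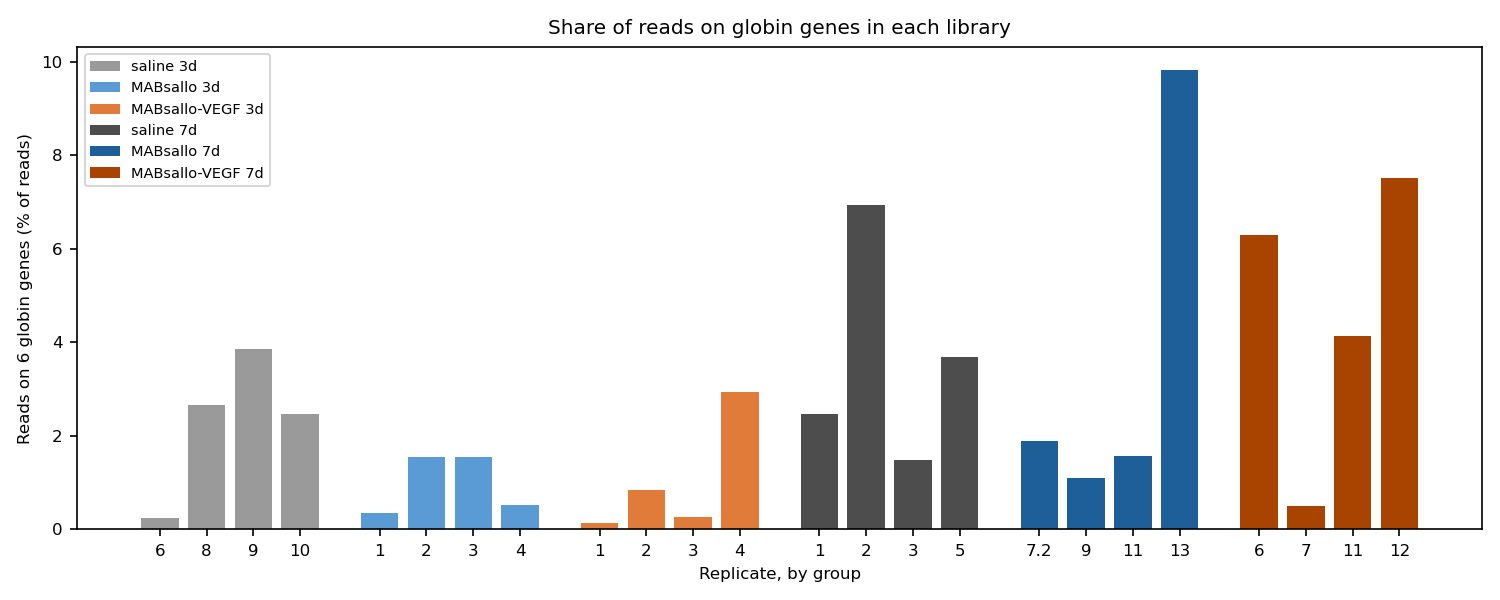
Share of reads on 6 globin genes (y axis, % of reads) in each library (x axis, replicate number within its group); colours mark the 6 groups. Libraries of the same group lie far apart, from 0.243% to 3.86% in saline 3d and from 1.10% to 9.82% in MABsallo 7d.

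The first comparisons asked how the cell-treated urethra differed from saline at 3d. No red cell gene passed the test, which was an adjusted p below 0.05 (limma, Benjamini-Hochberg over all genes) with a log2 fold change beyond 1. In MABsallo vs saline 12.3% of all genes passed, and 0 of the 8 did. None had an unadjusted p below 0.05, and DESeq2 and edgeR on recovered reads also called 0. The log2 fold change was -0.73 ± 1.004 (SE) for Hba-a1 (adjusted p = 0.651), -0.40 ± 0.96 for Hba-a2 (0.808), -1.67 ± 1.43 for Hbb (0.442) and -0.65 ± 1.11 for Hbb-bs (0.727). It was -1.06 ± 1.18 for Alas2 (0.569) and 0.45 ± 1.11 for Slc4a1 (0.813). The interval of the Hba-a1 difference ran from -2.81 to 1.34 on the log2 scale, so neither a several-fold fall nor a rise was outside it. The median over the 8 genes was -0.64, against 0.07 over all genes. Of the 1997 genes called, 1531 were higher, and scaling each sample to the same total, which moved the median of all genes by -0.26, gave 1102 of 2123. The fit shares the spread of each gene over all 6 groups, so the p-values do not measure the spread of these 2 groups alone. With only these groups in the fit, 5 genes were called over all genes.

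In MABsallo-VEGF vs saline at 3d, 0.0307% of all genes passed and 0 of the 8, with 0 at an unadjusted p below 0.05 and 0 in DESeq2 and edgeR. All 8 estimates were below 0, with a median of -1.23 against 0.04 over all genes. Hba-a1 was at -1.34 ± 1.004 (adjusted p = 0.507), Hbb at -1.80 ± 1.43 (0.538), Hbb-bs at -1.55 ± 1.11 (0.488) and Alas2 at -1.47 ± 1.18 (0.542). Epb42 was at -0.01 ± 1.34. MABsallo-VEGF vs MABsallo at 3d gave a median of -0.65 against -0.03 over all genes, with 0 of 8 passing (0.00614% of all genes), 0 at an unadjusted p below 0.05 and 0 in DESeq2 and edgeR. The comparisons with saline share the saline samples.

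The 3d results changed when saline replicate 6 and MABsallo-VEGF replicate 4 were left out. In MABsallo vs saline, Hbb then passed, at -3.10 ± 1.10 (adjusted p = 0.0467), and 1 of the 8 genes was called beside 18.1% of all genes. In MABsallo-VEGF vs saline, 13.6% of all genes passed in either direction, and 1857 of these 2213 were higher. Of the 8 genes, 4 passed, all lower. These were Hbb (-4.75 ± 1.18, adjusted p = 0.00827), Alas2 (-3.55 ± 1.11, 0.0322), Hbb-bs (-3.42 ± 1.07, 0.0329) and Hba-a1 (-2.96 ± 0.99, 0.0444). Hba-a2 was at -2.57 (0.0751), Ahsp at -2.54 (0.153), Epb42 at -2.34 (0.224) and Slc4a1 at -2.23 (0.183). Since the libraries left out were the lowest saline and the highest MABsallo-VEGF sample for each of the 8 genes, leaving them out moved the differences down by construction. Giving less weight to deviating samples (limma's array weights) with all 24 called Hba-a1 (-2.74, 0.0497) and Hbb (-3.97, 0.0401) in MABsallo-VEGF vs saline, beside 9.19% of all genes. With 22 samples MABsallo-VEGF vs MABsallo at 3d had a median of -1.52, with 8 of 8 estimates below 0 and 0 called (0.0184% of all genes). Hbb and Hba-a2 were picked by the study on these samples, so their direction is not independent evidence.

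**Figure D3:**
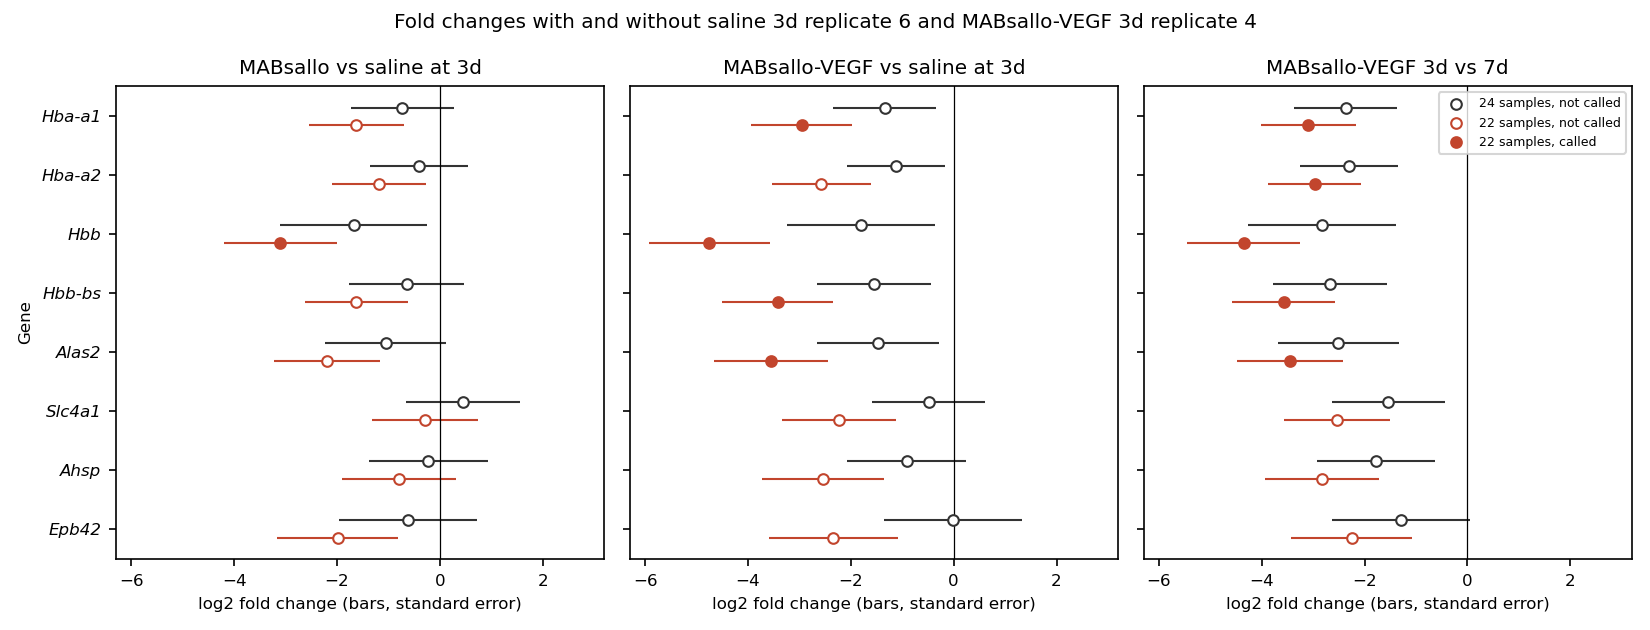
log2 fold changes (x axis) of the 8 genes (y axis) in 3 comparisons, with 24 samples and with 22; bars are standard errors and filled points passed the test. With 24 samples no point is filled, and with 22 samples 1, 4 and 5 are.

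Markers of other cells also moved in MABsallo vs saline at 3d. In MABsallo-VEGF vs saline no endothelial marker passed with 24 samples, where 0.0307% of all genes did. In MABsallo vs saline at 3d, 4 of 9 endothelial markers tested were lower, beside 466 of 16287 genes (Plvap, Emcn, Tie1 and Esam, at -1.55, -1.37, -1.33 and -1.08). The summed level of the endothelial list was 5112 to 10794 normalized counts in MABsallo 3d, 5635 to 16352 in MABsallo-VEGF 3d and 9720 to 21193 in saline 3d. With 22 samples, 5 of 9 were lower in MABsallo and 4 of 9 in MABsallo-VEGF, where 18.1% and 13.6% of all genes passed in either direction. None of 6 platelet, 9 neutrophil and 6 lymphocyte markers tested passed in either comparison with saline at 3d. The part of endothelial markers and of library depth in the differences of the red cell genes was not tested.

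At 7d the question was whether the groups still differed. No red cell gene passed in any of the 3 comparisons, and neither did any other gene in the fit of 24 samples (0% of 16287 in each) or of 22 (0%). With sample weights, 8, 147 and 3 genes passed over all genes, and 0 of the 8. Over all genes, 1014, 1033 and 452 had an unadjusted p below 0.05, DESeq2 called 0, 27 and 4, and edgeR called 0. None of the 8 had an unadjusted p below 0.05, and DESeq2 and edgeR called 0 of the 8. The median was -0.31 in MABsallo vs saline, 0.04 in MABsallo-VEGF vs saline and 0.34 in MABsallo-VEGF vs MABsallo, against 0.02, 0.01 and -0.02 over all genes. The difference from saline was also compared between days by an interaction term. Its median was -0.35 for MABsallo (0 of 8 called, 0% of all genes) and -1.13 for MABsallo-VEGF (0 of 8, 0%). None of the 8 had an unadjusted p below 0.05 in either, and DESeq2 and edgeR called 0 of them. With 22 samples, 3.56% and 3.59% of all genes passed and again 0 of the 8, but the medians moved to -1.36 and -2.89. For MABsallo-VEGF, Hbb, Hbb-bs, Hba-a1 and Hba-a2 then had unadjusted p-values of 0.00826, 0.0173, 0.0277 and 0.0347 in limma, with adjusted p-values of 0.111 to 0.222. A different response at 3d and 7d did not pass the test for these genes.

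The last comparisons set 3d against 7d within a treatment. The 8 genes were lower at 3d in MABsallo-VEGF by estimate, but none passed. The log2 fold change was -2.37 ± 1.004 for Hba-a1 (adjusted p = 0.0983, interval -4.45 to -0.30), -2.31 ± 0.96 for Hba-a2 (0.0912), -2.67 ± 1.11 for Hbb-bs (0.0925), -2.51 ± 1.18 for Alas2 (0.137) and -2.83 ± 1.43 for Hbb (0.169). The first 4 of these had an unadjusted p below 0.05, as did 33.4% of all genes. The adjusted test with its fold change limit was passed by 15.3% of all genes. DESeq2 and edgeR called 0 of the 8. Slc4a1, Ahsp and Epb42 were at -1.54, -1.78 and -1.29. With 22 samples, 5 of 8 fell, namely Hbb (-4.35, 0.00552), Hbb-bs (-3.57, 0.0113), Alas2 (-3.45, 0.0169), Hba-a1 (-3.09, 0.0166) and Hba-a2 (-2.97, 0.0188). Over all genes 20.3% passed in either direction, and 2707 of these 3313 were higher. Leaving out MABsallo-VEGF 3d replicate 4 alone gave the same 5 and the same estimates (19.7% of all genes). It is the only library of this comparison that the 22 samples lack. Sample weights also gave 5 (20.8%), and 4 came without MABsallo-VEGF 7d replicate 7 (12.6%). For all 8 genes, replicate 4 was the highest MABsallo-VEGF 3d sample and replicate 7 the lowest MABsallo-VEGF 7d sample. Leaving out either thus moved the differences down by construction.

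In MABsallo, 3d vs 7d gave 0 of 8 called by limma, beside 23% of all genes. None of the 8 had an unadjusted p below 0.05, against 40.9% of all genes. Hbb was at -2.69 ± 1.43 (adjusted p = 0.162) and Alas2 at -2.10 ± 1.18 (0.187). The count tests on recovered reads called both. DESeq2 gave -4.01 (0.00766) for Hbb and -2.87 (0.0249) for Alas2, with 24% of all genes called, and edgeR gave -4.16 (0.0321) and -3.03 (0.0392), with 24%. Hbb also passed with only the 2 groups in the fit (0.0479, 20.4% of all genes) and with 22 samples (0.0482, 23.7%). The estimate stayed at -2.69 in both. Neither library missing from the 22 samples belongs to these 2 groups. The standard error with 22 samples was 1.02, since the spread is shared over all groups. In MABsallo 7d, replicate 13 had 96825 normalized counts of Hbb against 13663 in the next sample, and without it limma gave -1.63. In saline, 3d vs 7d had 0 of 8 called by limma, beside 3.19% of all genes (0.19% with 22 samples), and 0 in DESeq2 and edgeR. None of the 8 had an unadjusted p below 0.05 in saline, against 18.8% of all genes. All 8 estimates were below 0 there, from -1.70 for Alas2 to -0.85 for Hba-a2. Without saline replicate 6 and MABsallo-VEGF replicate 4 they ran from -0.56 (Alas2) to 0.47 (Epb42) with a median of -0.04, and 4 of 8 were below 0.

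The 9 comparisons of 8 genes made 72 pairs, and the groups overlapped in all 72. Over all genes tested, the groups did not overlap for 14.7% in MABsallo vs saline, 4% in MABsallo-VEGF vs saline and 1.63% in MABsallo-VEGF vs MABsallo at 3d. At 7d the shares were 4.87%, 6.04% and 1.84%. For 3d vs 7d they were 10.6% in saline, 27% in MABsallo and 21.8% in MABsallo-VEGF.

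Over the 24 samples the 8 genes varied together. Pearson's r on log2(normalized count + 1) was 0.73 to 0.99 over the 28 pairs, with a median of 0.88, and Spearman's rho was 0.76 to 0.99. The largest permutation p of r was 3e-05, also after Benjamini-Hochberg adjustment over the 28 pairs, and the smallest, 1e-05, is the smallest that the permutations can give. The pairs Hba-a2 with Hbb-bs (r = 0.987), Hba-a1 with Hba-a2 (0.986) and Hbb-bs with Alas2 (0.976) were among the closest. Slc4a1 with Ahsp reached 0.937, while Ahsp with Hba-a1 had 0.807 and Ahsp with Epb42 had the lowest value, 0.731. Without the 2 samples farthest from the median, r was 0.72 to 0.98. Taken as deviations from the group means, r was 0.76 to 0.99 with a median of 0.90, so the relation held among samples with the same treatment and day. It was 0.73 to 0.98 in the 3d samples alone and 0.70 to 0.99 in the 7d samples alone (n = 12 each). The genes of a pair share their library and its scaling.

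**Figure D4:**
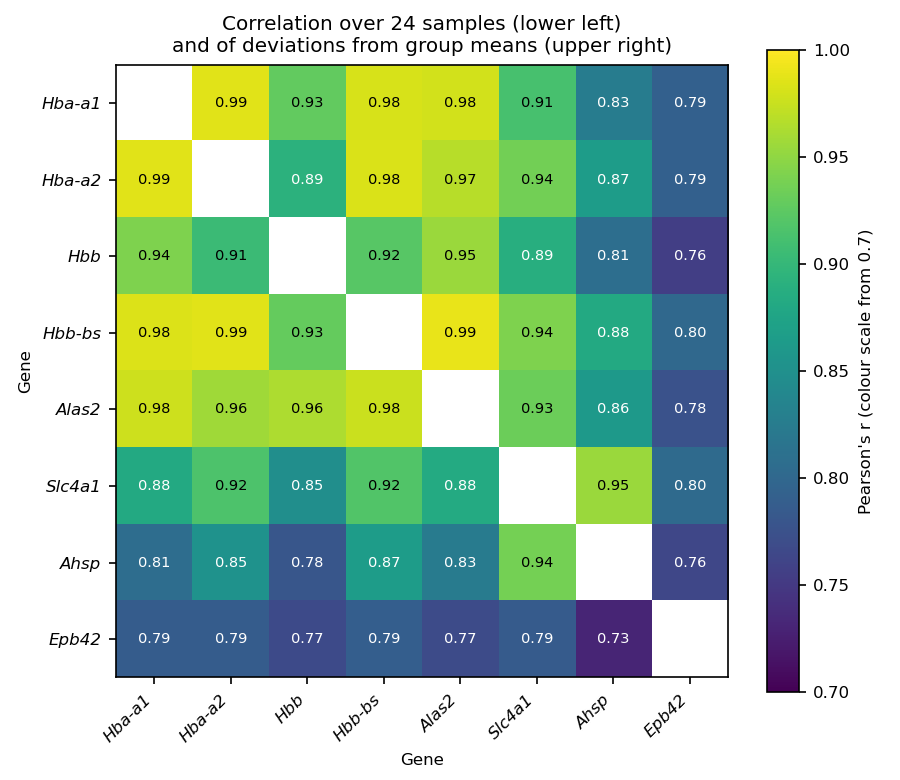
Pearson's r between the 8 genes (both axes) over 24 samples (lower left) and of deviations from group means (upper right), with the colour scale starting at 0.7. Pairs among the globins and Alas2 had 0.905 to 0.99 in the lower left, and some pairs with Slc4a1 lay in that range (0.937 with Ahsp). The row of Epb42 ran from 0.73 to 0.79.

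Other genes whose level followed Hba-a1 were sought among 13839 genes with a mean of at least 10 normalized counts, for which the median r was -0.02. The 10 with the highest r over the 24 samples were Hba-a3 (0.97), LOC100134871 (0.97), LOC103694855 (0.95), Bpgm (0.94), Lgals5 (0.93), LOC103694857 (0.92), Rhd (0.91), Rsad2 (0.87), Fech (0.87) and Cd52 (0.86). Of all genes compared, 7 reached an r of 0.9. The values within groups were close to these, such as 0.968 for Hba-a3 and 0.925 for Bpgm.

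The members did not keep fixed proportions. Hbb per Hbb-bs ran from 0.0900 to 1.02 between samples, while Hba-a1 per Hba-a2 ran only from 1.36 to 2.80. LOC100134871 per Hbb-bs was 2.73, 2.80, 2.78 and 3.46 in saline at 7d. It was 2.20, 1.57, 2.03 and 2.05 in MABsallo at 7d, and 1.70, 1.59, 1.54 and 1.94 in MABsallo-VEGF at 7d. Both cell-treated groups at 7d lay below all saline samples of that day without overlap, as did saline at 3d (1.45 to 2.54). The exact permutation p was 0.0286 for each, two-sided and the smallest that 4 against 4 allows. Alas2 per 1000 alpha globin counts was 4.65 to 5.38 in saline 7d against 1.48 to 3.67 in MABsallo-VEGF 7d and 1.53 to 4.03 in saline 3d. Slc4a1 per 1000 alpha globin counts was 2.784 to 9.54 in MABsallo 3d and 1.84 to 2.782 in saline 3d, which touch at the edge. Over the 63 tests of 7 ratios, chosen after their values were seen, 6 had an exact permutation p below 0.05 and the lowest adjusted p was 0.3, so none passed the correction.

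**Figure D5:**
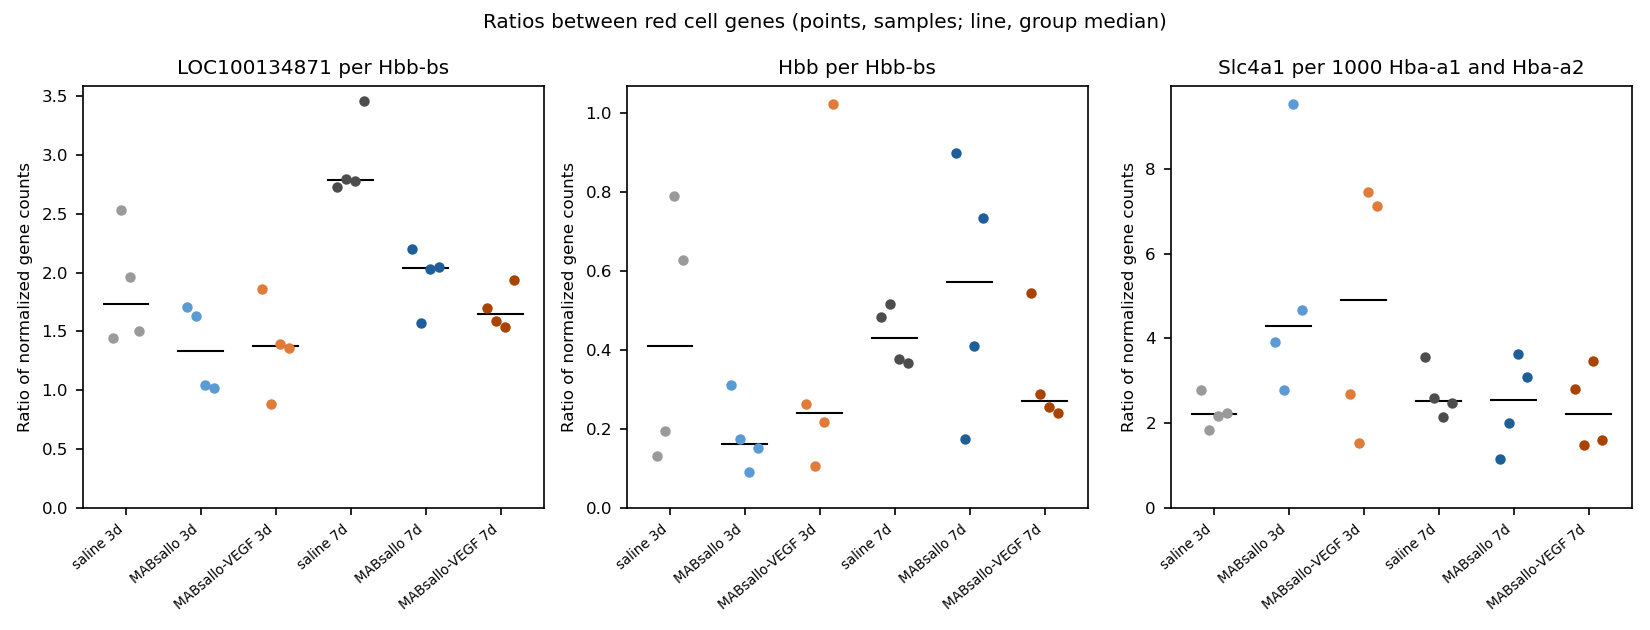
Ratios of normalized gene counts (y axes) in the 6 groups (x axes); points are samples and lines are group medians. Saline at 7d is above the other 7d groups for LOC100134871 per Hbb-bs (2.73 to 3.46 against 1.54 to 2.20), and the Hbb per Hbb-bs groups overlap.

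A ratio can also move with the level of red cell RNA. Hbb per Hbb-bs had an r of 0.48 with Hba-a1 over the 24 samples (permutation p = 0.0174, adjusted 0.0676 over 5 relations) and a rho of 0.54 (permutation p = 0.00675, adjusted 0.0337). Without the 2 samples farthest from the median, r was 0.45, and it was 0.40 in the 3d samples and 0.35 in the 7d samples. For LOC100134871 per Hbb-bs, r was 0.35 (permutation p = 0.0880, adjusted 0.0880) and rho 0.41 (permutation p = 0.0465, adjusted 0.0791), and r of the deviations from group means was 0.03. Alas2 per Hbb-bs had an r of 0.42 (permutation p = 0.0405, adjusted 0.0676) and a rho of 0.41 (permutation p = 0.0499, adjusted 0.0791). Slc4a1 per Hbb-bs went the other way, with an r of -0.45 (permutation p = 0.0274, adjusted 0.0676) and a rho of -0.39 (permutation p = 0.0633, adjusted 0.0791), and so did Ahsp per Hbb-bs, with -0.39 (permutation p = 0.0573, adjusted 0.0716) and -0.35 (permutation p = 0.0929, adjusted 0.0929). As deviations from group means these r were 0.41 for Hbb, 0.40 for Alas2, -0.21 for Slc4a1 and -0.25 for Ahsp. In the 3d samples r was 0.15 for Alas2, -0.48 for Slc4a1 and -0.47 for Ahsp. In the 7d samples it was 0.26 for Alas2, 0.04 for Slc4a1 and -0.004 for Ahsp, so the negative relations were not seen at 7d.

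Of the other globins, 12 of 19 named genes were in the table and 9 were tested. Embryonic Hbz had 0 reads in all 24 samples, Hbe1 had a mean of 2.82 normalized counts, and Hbe2 and Hbg1 had reads in 1 sample each. Among the abundant ones, LOC100134871 (mean 60424) was at -1.12 in MABsallo vs saline (adjusted p = 0.527) and -1.998 in MABsallo-VEGF vs saline at 3d (0.370). In MABsallo-VEGF 3d vs 7d, Hba-a3 fell by 3.05 on the log2 scale (adjusted p = 0.0443) and LOC103694855 fell by 3.44 (0.0345), while LOC100134871 was at -3.02 (0.0630). The 2 that fell were 2 of 9 tested, beside 365 lower of 16287 genes. The median of the list was -1.49 against 0.05 over all genes. With 22 samples, 4 of 9 were lower in that comparison (20.3% of all genes passed in either direction). In MABsallo-VEGF vs saline at 3d it was also 4 of 9 (13.6% in either direction).

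Heme synthesis and mitochondrial iron genes (17 tested) had 0 called in either comparison with saline at 3d, with medians of -0.07 and -0.01. In MABsallo-VEGF 3d vs 7d, 4 fell and 1 rose, beside 365 lower and 2132 higher of 16287 genes. Alas1, the housekeeping form of the enzyme, fell by 1.25 on the log2 scale (adjusted p = 0.00927). Slc25a39 fell by 1.03 (0.0128) and Slc25a38 fell by 1.03 (0.0142), both mitochondrial carriers, and Cpox, a late heme enzyme, rose by 1.08 (0.0422). The remaining gene, Fech, which inserts iron into protoporphyrin to form heme, fell by 1.02 (0.0424) and is named after its value was seen. In MABsallo 3d vs 7d, where 23% of all genes passed, Cpox rose by 1.25 and Slc11a2, an iron transporter, fell by 1.17. The most abundant gene of the list, Urod, was at -0.02 in MABsallo vs saline at 3d, and Slc25a39, the next, was at -0.40.

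Of 9 erythroid transcription factor and receptor genes tested, Zfpm1 rose in MABsallo vs saline at 3d (1.11, adjusted p = 0.0231). It was the 1 of the 9 called there, beside 12.3% of all genes. The most abundant of them, Lmo2 and Ldb1, were at -0.35 and 0.13. Gata1, the main erythroid factor, had 0 reads in all samples, while Klf1, which acts on beta globin, had reads in all 24 (mean 74.9). The receptor gene Epor had reads in 15 samples (mean 8.85).

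The red cell membrane and cytoskeleton list (14 tested) moved in both directions in MABsallo vs saline at 3d, with 3 higher and 2 lower, beside 1531 higher and 466 lower of 16287 genes. Sptb (beta spectrin) rose by 5.39 on the log2 scale (adjusted p = 0.00665), Ank1 (ankyrin) by 3.84 (0.0312) and Epb41 (protein 4.1) by 3.06 (0.0117). Ank1 was near the limit of depth, with a mean of 7.26 normalized counts and reads in 10 of the 24 samples. Aqp1, a water channel of red cells and endothelium, fell by 1.29 (0.0226). Gypc (a glycophorin), named after its value was seen, fell by 1.27 (0.0398). Sptb, Ank1 and Epb41 are also expressed outside the red cell, and Sptb and Ank1 in striated muscle. In the same comparison, Tnnt3 (1.55) and Mylpf (1.42) were 2 of 5 striated muscle markers that rose (0 of 5 with 22 samples), and the part of muscle in these values was not tested. In MABsallo-VEGF 3d vs 7d, where 15.3% of all genes passed, Epb41 rose by 3.60 and Aqp1 fell by 1.52. In MABsallo 3d vs 7d (23% of all genes), Sptb rose by 5.33, Epb41 rose by 3.92, Icam4 fell by 3.83 and Aqp1 fell by 1.14. Icam4 was also low, with a mean of 13.45 and reads in 14 samples. In saline 3d vs 7d, Epb41 was the 1 called (2.60), beside 3.19% of all genes. Tmod1, the most abundant after Aqp1, was at 0.55 in MABsallo vs saline at 3d.

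Among reticulocyte enzymes and maturation genes (14 tested), Ube2o rose by 3.83 in MABsallo vs saline at 3d (adjusted p = 0.0235). This ubiquitin ligase, which clears proteins from maturing red cells, was the 1 gene of the list called, beside 12.3% of all genes. Ube2o rose by 5.70 in MABsallo 3d vs 7d (23% of all genes passed), and had reads in 17 of the 24 samples (mean 39.9). The most abundant genes, Gpx1 and Bnip3l, were at -0.47 and -0.16 in MABsallo vs saline. In MABsallo-VEGF 3d vs 7d (15.3% of all genes) Ube2o rose by 4.36 and Bpgm, which makes the oxygen affinity regulator of red cells, fell by 1.47 (0.0436). Of the 9 clearance genes tested, Hpx (hemopexin) fell by 3.01 in MABsallo vs saline at 3d (0.0374) and was the 1 called (12.3% of all genes). In MABsallo 3d vs 7d (23% of all genes) Hpx fell by 3.34 and Hp (haptoglobin) fell by 2.81. Fth1, the most abundant of them, was at -0.50 in MABsallo vs saline (0.321), and Lrp1, the next, at -0.07. With 24 samples, no gene of these lists passed in MABsallo-VEGF vs saline or MABsallo-VEGF vs MABsallo at 3d, or in any comparison at 7d. Over all genes only 0.0307% and 0.00614% passed at 3d and 0% at 7d, so this tells nothing particular to the lists.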

How the data were processed

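Gene expression of rat urethra was measured by 3' mRNA sequencing (QuantSeq) in 24 samples. Per the labels and methods, the authors trimmed reads, aligned them with HISAT2 to Rnor6.0, discarded multi-mapped reads and counted with HTSeq. The deposited values are counts divided by DESeq2 size factors, a normalized signal, and equal 4 times the recovered reads over the size factor of those reads, for a reason not given in the sources used here. In every sample 100% of values divided by the lowest one gave whole numbers (tolerance 1e-06), so reads were recovered. Depth was 2170695 to 10166052 reads.

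Groups came from the labels. The main test, limma 3.58.1 (R 4.3.3), ran on log2(normalized count + 1) for genes with a mean of at least 2 (16287), with the 6 groups in 1 fit. A gene was called where its adjusted p was under 0.05 and its log2 fold change exceeded 1 in size. The unit required limma in place of the count test, so DESeq2 1.42.0 and edgeR 4.0.16 on recovered reads were alternatives. Other alternatives were pseudocount, filter, scaling, sample weights, samples in the fit and leaving out each sample. Correlations and ratios used Python 3.11.15 with scipy 1.17.1. Scripts were tested on simulated data. Named genes were the 8 genes, from each list the called genes (at most the 4 of largest change) and the 2 most abundant, and the 10 most like Hba-a1. The genes and lists were chosen with earlier results of these data known. Replicate numbers shared by MABsallo and MABsallo-VEGF at 3d were not taken as pairs.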

Additional observations from a re-analysis of the deposited data

Results flagged for a closer look

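Of 48 groups of 4 samples (8 genes in 6 groups), 12 had a sample whose gap to the next, divided by the range of the group, was above Dixon's 95% critical value for 4 samples. The gaps were taken on normalized counts without log2, and all 12 flagged samples were the highest of their group. The rate of about 1 in 20 groups by chance holds for normally distributed values, which was not tested here. The 8 genes are also not independent of each other, so no excess over chance is read from the 12. In MABsallo at 7d, replicate 13 was far above the rest for 7 genes. It had 1275722 normalized counts of Hba-a1 (others 119443 to 187138), 529783 of Hba-a2 (54589 to 68154), 96825 of Hbb (1563 to 13663) and 132013 of Hbb-bs (8911 to 15193). It also had 8420 of Alas2 (377 to 1072), 5594 of Slc4a1 (297 to 776) and 195 of Epb42 (9.29 to 31.7).

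In MABsallo-VEGF at 3d, replicate 4 was far above the rest for 4 genes, with 35554 normalized counts of Hbb (238 to 992), 2881 of Slc4a1 (59.5 to 343), 1095 of Ahsp (21.6 to 100.01) and 125 of Epb42 (5.04 to 10.8). In MABsallo at 3d, replicate 3 had 1246 of Ahsp against 75.9 to 142 in the others. The cause of these values was not tested.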

How the results depend on the processing

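The number of red cell genes called with all 24 samples was 0 in each comparison. It rose to 1 in MABsallo vs saline at 3d, 4 in MABsallo-VEGF vs saline at 3d, 1 in MABsallo 3d vs 7d and 5 in MABsallo-VEGF 3d vs 7d without saline 3d replicate 6 and MABsallo-VEGF 3d replicate 4. Neither library is in MABsallo 3d vs 7d, where the estimates stayed the same and only the shared spread changed. Sample weights gave 2 in MABsallo-VEGF vs saline at 3d and 5 in MABsallo-VEGF 3d vs 7d. In MABsallo 3d vs 7d, DESeq2 gave 2, edgeR 2 and a fit of only the groups compared 1. With single samples left out the count ran from 0 to 5 in MABsallo-VEGF 3d vs 7d (5 without MABsallo-VEGF 3d replicate 4, 4 without MABsallo-VEGF 7d replicate 7) and 0 elsewhere. The direction of low or weakly changed genes turned in places. In MABsallo vs saline at 3d, Slc4a1 was at -0.30 with 22 samples, and Ahsp at 0.52 in DESeq2 and 0.34 in edgeR. In MABsallo-VEGF vs saline at 3d, DESeq2 gave 0.38 for Slc4a1, 0.26 for Ahsp and 0.11 for Epb42, and edgeR 0.36, 0.25 and 0.11. Over single samples left out, the ranges in MABsallo vs saline at 3d were -1.18 to 0.032 for Hba-a2, -0.30 to 0.93 for Slc4a1, -1.11 to 0.23 for Ahsp and -1.99 to 0.54 for Epb42, and in MABsallo-VEGF vs saline -1.48 to 0.38 for Slc4a1 and -1.38 to 0.63 for Epb42. The cause was not tested. The 28 correlations kept an adjusted p below 0.05 under the 5 alternatives run.

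The replicate block could pair samples in MABsallo-VEGF vs MABsallo at 3d alone, since the groups of each other comparison share fewer than 2 numbers, and there it gave 0 red cell genes and 0 genes in all, against 1 without it. Deviations of same-numbered samples correlated at 0.222, 0.151, 0.0734 and 0.254. Over all genes, MABsallo vs saline at 3d had 1997 called, and 5 with only those groups in the fit. MABsallo-VEGF vs saline at 3d had 5, against 2213 with 22 samples, 1497 with sample weights and 395 in DESeq2.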

Other observations

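The labels of MABsallo-VEGF at 7d mark replicates 6 and 7 as recovered. Their Hba-a1 was 691495 and 50482 normalized counts, against 389556 and 761889 in replicates 11 and 12, so the recovered rats were the second highest and the lowest of the group. No test was run on these pairs.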
